A study of Aspergillus niger with 27 samples.

Results

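Mycelium over wheat bran compartment 8 was compared with mycelium over glucose compartment 2 of the same colonies of the filamentous fungus Aspergillus niger. The comparison takes 6 of the study's 27 RNA sequencing libraries, 3 per compartment, chosen by substrate and compartment number and paired by plate. Each of the 3 plates, A, B and C, carried 1 colony on liquid medium, inoculated at its centre, and a perforated membrane kept the hyphae out of the medium. Glucose filled compartments 1 to 3, sugar beet pulp 4 to 6 and wheat bran 7 to 9, so all 6 libraries come from colonies that also lay over sugar beet pulp. Compartments 2 and 8 are the second-numbered of their sections. The labels say that a section has 1 compartment with its own substrate on both sides, but not that it is the second-numbered, so the name "middle compartment" rests on the numbering. The sources used here give neither the strain nor the age of a colony nor the amount of substrate. A library holds all mycelium cut from over a compartment, and the colonies were not symmetrical, since radial growth depended on the carbon source.

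Aspergillus niger feeds by secreting enzymes and taking up the sugars they release. Wheat bran holds arabinoxylan, cellulose and starch, and in this fungus the transcription factors XlnR, AraR and AmyR are known to turn on genes for the use of xylan, arabinan and starch. Glucose is taken up directly, and the repressor CreA is known to hold many of those genes down while glucose is plentiful. The deposited table names genes by NRRL3 numbers only, and 0 of its 11846 IDs were found in the gene table at hand, of assembly ASM285v2. No gene below is therefore given a name or a role, and the lists of enzyme and regulator genes drawn up for this comparison were not analysed here.

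The 3 glucose libraries held 12885056 to 16648022 counts and the 3 wheat bran libraries 15433095 to 21202650. At least 10 counts were reached by 9443 to 10143 genes on glucose and by 10068 to 10543 on wheat bran. Pearson r of log2 CPM (TMM-scaled counts per 1e6) between the glucose libraries was 0.977 to 0.979, across 10990 genes. The wheat bran library of plate A stood apart from the others, with r of 0.928 to plate B and 0.940 to plate C, against 0.976 between B and C. It lay nearer to the compartment 7 library of its own plate, at 0.979. The whole series has a group further apart, wheat bran compartment 9, whose TMM factor was 0.551 ± 0.0954, against 0.830 ± 0.0956 in compartment 8 and 0.908 ± 0.142 in glucose compartment 2 (SD, n = 3 plates).

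Wheat bran and glucose mycelium of the same colonies differed in 1693 of 10990 genes tested, 15.4% of them. Of these, 957 genes, or 8.71%, were higher on wheat bran and 736, or 6.7%, were lower (edgeR quasi-likelihood test, plate as a block, Benjamini-Hochberg adjusted p under 0.05). An unadjusted p under 0.05 was reached by 3305 genes, 30.1%. The genes that rose moved further than those that fell. The median log2 fold change was 1.93 among the former, with quartiles of 1.46 and 2.79, and -1.43 among the latter, with quartiles of -1.98 and -1.14, while over all genes tested it was -0.01. Changes of 4-fold or more were found in 451 genes that rose and 179 that fell, changes of 16-fold or more in 98 and 20, and changes of 64-fold or more in 24 and 3. In mixed tissue, fewer cells of a type and less RNA per cell cannot be told apart, and this holds for all levels given here.

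The count depended on which plates were kept. Without plate C 266 genes passed, 172 higher and 94 lower, and 265 of them were among the 1693. The plates then left, A and B, had the least similar changes, with r = 0.56 across genes, against 0.61 for A with C and 0.78 for B with C. The part of this in the lower count was not tested. Without plate A the test called 1866 genes, of which 1292 were shared, with more lower, 1017, than higher, 849. Without plate B it called 1169, of which 1052 were shared. When libraries were scaled by size only, without TMM factors, the all-gene median was -0.15, and 791 genes were called higher and 501 lower.

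**Figure D1:**
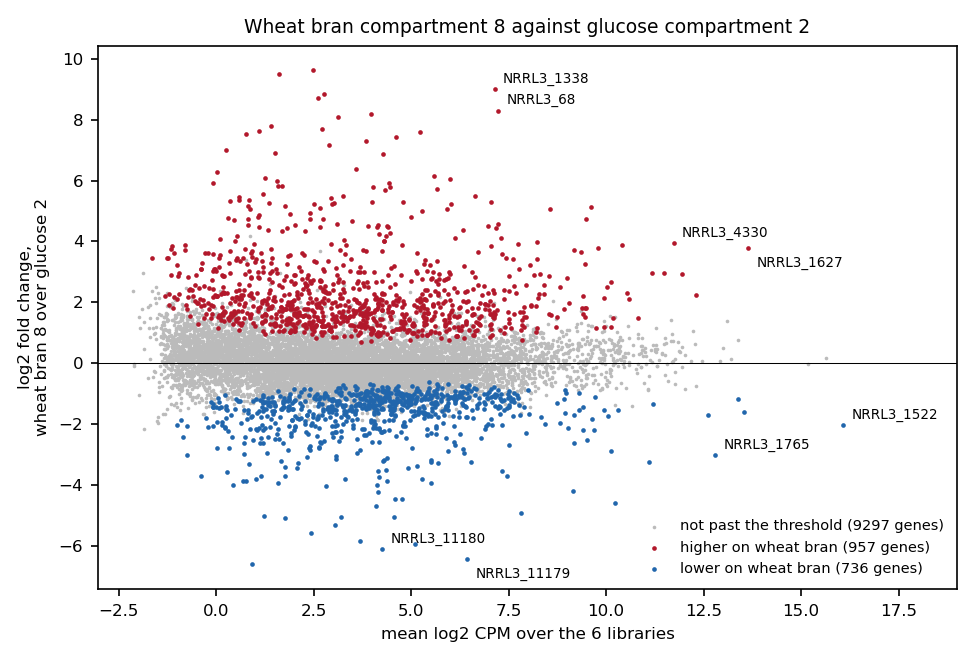
Log2 fold change of wheat bran compartment 8 over glucose compartment 2 (y axis) against the mean log2 CPM over the 6 libraries (x axis), 1 point per gene. The 957 genes that rose (red) reach further from 0 than the 736 that fell (blue), and both lie at all levels of expression.

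NRRL3_1338 showed the largest rise among the 771 genes that passed the threshold, moved the same way on all plates and had a mean log2 CPM of 4 or more. It stood at 7.73, 9.48 and 3.14 CPM on glucose on plates A, B and C, and at 1682, 6557 and 2873 CPM on wheat bran. No wheat bran value came near a glucose value, and plate B was the highest on both substrates. Its log2 fold change was 9.02 (SE 0.77, edgeR adjusted p = 1.1e-07). The gene was also high in the other wheat bran compartments, at 2592 ± 2220.3 CPM in compartment 7 and 3118 ± 1102 in 9, and stayed low on sugar beet pulp, at 13.7 ± 4.59 in compartment 5 (SD, n = 3 plates).

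Under the same rule NRRL3_68 rose next most, with far more spread between colonies. It stood at 14.9, 6.59 and 8.67 CPM on glucose and at 11506, 493 and 2278 CPM on wheat bran, on plates A, B and C. Plate B was the lowest on both substrates, and its wheat bran value still lay far above every glucose value. The log2 fold change was 8.30 (SE 1.22, edgeR adjusted p = 7.0e-05), and 7.37 without plate A. The order of the plates was like that in compartments 7 and 9, where plate B held 667 and 336 CPM and plate A 13446 and 7916. NRRL3_68 also reached 508 ± 438 CPM in sugar beet pulp compartment 6, against 24.4 ± 11 in 4 and 90.9 ± 58.4 in 5 (SD, n = 3 plates).

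Of the genes that fell, NRRL3_11179 and its neighbour by ID, NRRL3_11180, fell most. NRRL3_11179 stood at 525, 998 and 1034 CPM on glucose and at 4.66, 17.2 and 9.38 CPM on wheat bran, on plates A, B and C. The fold change on the log2 scale was -6.42 (SE 0.97, edgeR adjusted p = 9.5e-05). NRRL3_11180 was less abundant and followed the same course, with 91.5, 211 and 184 CPM on glucose and 1.66, 3.47 and 2.00 on wheat bran. On the log2 scale it changed by -6.11 (SE 0.88, edgeR adjusted p = 5.9e-05). For both genes the groups lay far apart and plate A was the lowest on both substrates. In sugar beet pulp compartment 5 both had intermediate means, 348 ± 296 and 41.1 ± 41.7 CPM (SD, n = 3 plates). On plate A, NRRL3_11179 stood at 690 CPM there, above its glucose value, and NRRL3_11180 at 89.1 CPM, near its glucose value. How the counting treated reads shared by like genes is not given, so levels of neighbours that are close copies would be uncertain.

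The change also reshaped which transcripts filled the libraries. NRRL3_1522 had the largest loss in CPM among the genes called that moved the same way on all plates. It took 12.6% ± 1.80 of all counts on glucose and 2.89% ± 0.510 on wheat bran (SD, n = 3 plates). Its levels were 123075, 194345 and 111673 CPM on glucose and 28905, 41269.7 and 34769.5 CPM on wheat bran, with no overlap. The log2 fold change was -2.02 (SE 0.41, edgeR adjusted p = 0.0016). This call was lost without plate C, at an adjusted p of 0.084 and a log2 fold change of -2.14. It was also lost with the 6 libraries alone in the edgeR fit, at an adjusted p of 0.073 and a log2 fold change of -1.94. Low levels of NRRL3_1522 were not limited to wheat bran. Over sugar beet pulp its means were 59410 ± 6402 CPM in compartment 4, 23212 ± 7527 in 5 and 14212 ± 1608 in 6, against 34981 ± 6185 in wheat bran 8 (SD, n = 3 plates).

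NRRL3_1765 had the next largest loss. It stood at 12089.7, 35452 and 19698 CPM on glucose and at 1948, 3784 and 2109 CPM on wheat bran, with plate B highest on both. Its log2 fold change was -3.02 (SE 0.74, edgeR adjusted p = 0.0070), and the call was lost without plate C, at -2.90 and an adjusted p of 0.22. Its share of counts was 1.95% ± 0.773 on glucose and 0.217% ± 0.0887 on wheat bran (SD, n = 3 plates). Sugar beet pulp also had low levels of this gene, with means of 6495 ± 5596 CPM in compartment 4, 1048 ± 619 in 5 and 362 ± 127 in 6. The mean in wheat bran 8 was 2614 ± 1017 CPM (SD, n = 3 plates).

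NRRL3_1627 had the largest gain in CPM among the genes called that moved the same way on all plates. It took 0.324% ± 0.0382 of counts on glucose and 4.2% ± 1.99 on wheat bran (SD, n = 3 plates), where its levels were 55749, 22769.9 and 76074 CPM against 3249, 4880.5 and 2897 CPM on glucose. Plate B had the smallest difference, being the highest of the glucose libraries and the lowest of the wheat bran libraries. The log2 fold change was 3.78 (SE 0.62, edgeR adjusted p = 2.0e-04), with 4.49 without plate B and 3.08 without plate C.

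NRRL3_4330 had the next largest gain and was also low in sugar beet pulp compartment 5. It stood at 1013, 1136 and 499.8 CPM on glucose, at 11292, 16425 and 14239 CPM on wheat bran, and at 6.39, 47.6 and 82.4 CPM in sugar beet pulp compartment 5. The wheat bran libraries were all above the glucose libraries, and those of sugar beet pulp compartment 5 were all below the glucose libraries. In sugar beet pulp compartment 4 it stood at 150, 564 and 255 CPM, where plate B lay above the glucose value of plate C. The log2 fold change from glucose to wheat bran was 3.96 (SE 0.84, edgeR adjusted p = 0.0023), and without plate C it was 3.65 with an adjusted p of 0.081.

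**Figure D2:**
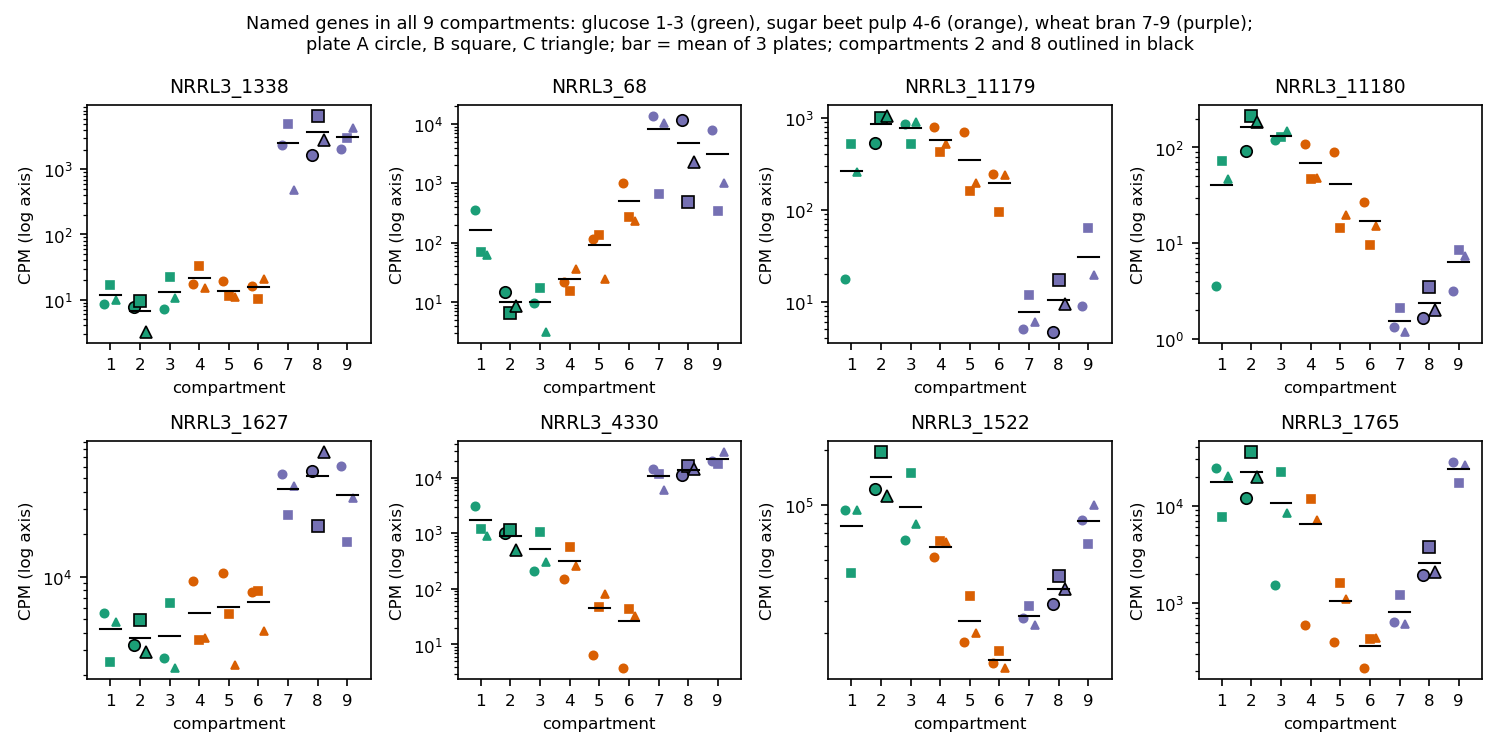
CPM (log axis) of 8 genes called between glucose compartment 2 and wheat bran compartment 8, in all 9 compartments (x axis). All 8 moved the same way on all plates. They have the largest fold changes at a mean log2 CPM of 4 or more, or the largest changes in CPM. Symbols are plates, bars are means of 3 plates, and the compartments compared are outlined in black. NRRL3_1338 is high only over wheat bran, NRRL3_68 also rises over sugar beet pulp from 4 to 6, and NRRL3_1522 has means of 81406 CPM over wheat bran 9 and 76809 over glucose 1.

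Taken as a set, the 957 genes that rose held 4.33%, 3.08% and 3.14% of the counts on glucose on plates A, B and C, and 27.3%, 16.3% and 20.9% on wheat bran. The 736 that fell held 24.2%, 30.2% and 27.9% on glucose and 6.34%, 8.05% and 6.19% on wheat bran. These shares describe the genes that were selected on the same libraries and test nothing. Most of the genes that rose were already detected on glucose, since 209 of 957 had a mean under 1 CPM there and 0 of 957 had no count in all 3 glucose libraries. Likewise 66 of 736 genes that fell had a mean under 1 CPM on wheat bran, and 0 of 736 had no count in all 3 libraries.

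Genes that rose were about as frequent at every level of expression, and genes that fell were most frequent at a mean log2 CPM of 4 to 8. With a mean log2 CPM under 2, 8.73% of 3471 genes rose and 4.12% fell. From 2 to 4, 8.65% of 3123 genes rose and 6.40% fell. From 4 to 8, 8.59% of 3855 genes rose and 9.34% fell, and from 8 upward 9.80% of 541 rose and 6.10% fell. The share was not tested between levels, and power to call a gene depends on its counts.

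Of the 1693 genes called, 1672 changed in the same direction on each of the 3 plates and 21 had a plate that went against the others. The test chose these genes on the same libraries, which favours such agreement, so the count tests nothing. All 3 wheat bran libraries lay above all 3 glucose libraries in 1919 of the 10990 genes, 17.5%, and below them in 2120, 19.3%. Of the genes called, 893 of 957 and 725 of 736 had no such overlap, and 2421 genes without overlap did not pass the test. Across all genes the change on plate B resembled that on plate C, with r = 0.78, more than that on plate A, with 0.56 to B and 0.61 to C. These are descriptions across 10990 genes, which are not independent. The genes that fell did so by a median log2 difference of -1.14 on plate A, -1.48 on B and -1.72 on C, and those that rose did so by 1.84, 1.66 and 2.02. In the compartments compared, wheat bran varied more between colonies than glucose. The SD of log2 CPM over plates had a median of 0.429 over all genes on wheat bran and 0.293 on glucose, and was larger on wheat bran in 7575 of 10990 genes. Between plates B and C, r of log2 CPM was 0.976 on wheat bran and 0.979 on glucose. The wheat bran library of plate A stood apart, with r of 0.928 to B and 0.940 to C, and its part in the larger SD was not tested. This SD was not compared in the other compartments.

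Whether these genes also separate the substrates elsewhere in the colonies was examined in the other libraries. They lie outside the contrast of 8 with 2, but all 27 libraries entered the fit and so helped set its filter, scaling and spread. Wheat bran compartment 7 against glucose compartment 3, 6 other libraries of the same colonies, called 16.7% of genes, 1030 genes higher, 9.37%, and 802 lower, 7.3%. Without plate C it called 221. Of the 957 genes that rose in compartment 8, 953 were also higher in 7 than in 3 and 711 passed the test there. Of the 736 that fell, 730 were also lower and 466 passed. Of all genes tested, 50% were higher in 7 than in 3 and 50% were lower. In both lists 0 genes passed in the opposite direction. The median log2 fold changes of these lists in compartment 7 over 3 were 1.71 and -1.22, against 1.93 and -1.43 in the libraries that selected them, and 0.00 for all genes. The colonies are the same, so these libraries repeat the measurement over another part of each colony, not over another colony.

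Wheat bran compartment 9 against glucose compartment 1, the third pair of these substrates, called more genes, 40.7%, with 49.1% at an unadjusted p under 0.05. They were 2114 higher, 19.2%, and 2360 lower, 21.5%. Without TMM factors they were 792 higher and 4945 lower, around an all-gene median of -0.98, so the split of this pair depended on the scaling. Leaving out plate B gave 2896 genes and leaving out plate C 1612. Of the 957 genes that rose in 8, 790 were also higher in 9 than in 1, 502 passed the test and 28 passed in the opposite direction. Of the 736 that fell, 658 were also lower, 417 passed and 7 passed in the opposite direction. Of all genes tested, 47.3% were higher in 9 than in 1 and 52.7% were lower. The median log2 fold changes of the lists there were 1.20 and -1.20, against -0.08 for all genes.

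**Figure D3:**
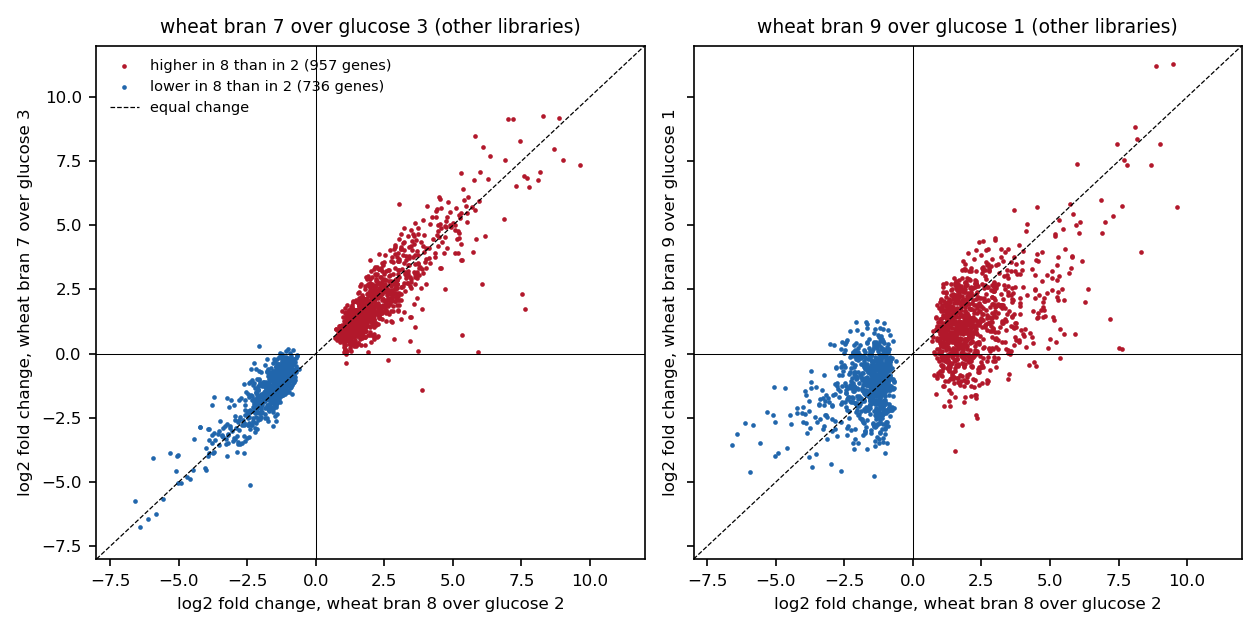
Log2 fold changes of the genes called between wheat bran compartment 8 and glucose compartment 2 (x axis) in the pairs 7 over 3 (left, y axis) and 9 over 1 (right, y axis), which use other libraries of the same colonies. Points lie closer to the dashed line of equal change on the left, with 953 of 957 and 730 of 736 genes on the same side of 0. Some are far from it there too, such as a gene at 5.92 on the x axis and 0.08 on the y axis. Points spread wider on the right, with 790 and 658 genes on the same side of 0. Of all genes tested, 50% are higher in 7 than in 3 and 47.3% are higher in 9 than in 1.

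The difference between pairs was tested directly. The change from glucose to wheat bran differed between the pair 8 and 2 and the pair 9 and 1 in 1105 of 10990 genes, 10.1%, by the edgeR quasi-likelihood interaction test with Benjamini-Hochberg adjustment. In 759 genes, 6.91%, the change was more positive in compartments 8 and 2, and in 346, 3.15%, it was more negative. Only part of these were genes called between 8 and 2, with 169 genes that rose and 31 that fell among the 759, and 2 that rose and 74 that fell among the 346. For 663 of the 759 and 310 of the 346 the wheat bran compartments 8 and 9 were further apart than the glucose compartments 2 and 1, which holds for 72.3% of all genes. The count was 0 without plate C, with 1505 genes at an unadjusted p under 0.05, 455 without plate A and 416 without plate B. It was 606 with the 12 libraries of these compartments alone and 1704 with DESeq2. Without TMM factors it gave 2066 more positive and 64 more negative, around a median of 0.86 over all genes against 0.10 with TMM. Compartment 9 had the low TMM factors given above, 8006891 to 11847598 counts per library and 8103 to 9161 genes with at least 10 counts. These move with the difference, and their part in it was not tested.

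NRRL3_10559 and NRRL3_3708 had the largest positive difference among the 652 genes that met the naming rule for this test. NRRL3_10559 stood at 33.5, 19.8 and 26.1 CPM on glucose 2 and at 33.7, 48.4 and 100.2 on wheat bran 8, on plates A, B and C. In the other pair it stood at 19.3, 109 and 203 CPM on glucose 1 and at 3.61, 6.52 and 8.82 on wheat bran 9. The groups 2 and 8 lay close, with 33.5 and 33.7 CPM as nearest values and a log2 fold change of 1.03 (SE 0.58) that did not pass, while those of the pair 9 and 1 did not overlap, with -4.02 (SE 0.66). The difference was 5.05 (SE 0.88, edgeR adjusted p = 0.0027). Without plate C it was 3.98 with an adjusted p of 0.23, and without plate A it was 6.03 with 0.011.

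NRRL3_3708 rose from 32.9, 22.8 and 36.1 CPM on glucose 2 to 2120.4, 136 and 479 on wheat bran 8, and plate A was the highest there by far. Without plate A its log2 fold change was 3.32 (edgeR adjusted p = 0.012). Over all plates its log2 fold change was 4.50 (SE 0.82, edgeR adjusted p = 6.3e-04), against -0.50 (SE 0.73) from glucose 1 to wheat bran 9, where 131, 189 and 129 CPM stood against 361, 35.3 and 52.9. The difference was 5.00 (SE 1.05, edgeR adjusted p = 0.0078), and 5.10 with an adjusted p of 0.23 without plate C.

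In the other direction, NRRL3_7420 fell from 81.4, 169.6 and 206 CPM on glucose 2 to 3.73, 6.70 and 2.26 on wheat bran 8, a log2 change of -5.06 (SE 0.64). On glucose 1 it stood at 30.7, 19.5 and 43.9 CPM and on wheat bran 9 at 10.8, 16.7 and 13.2, so those groups lay much closer. The difference was -3.77 (SE 0.80, edgeR adjusted p = 0.0079). It was lost without plate B, at -3.69 and an adjusted p of 0.062, and without plate C, at -3.46 and 0.23. NRRL3_11180, described above, differed by -3.40 (SE 1.07, edgeR adjusted p = 0.045). Its value on glucose 1 was 3.60 CPM on plate A, against 72.6 and 46.9 on B and C. That call was lost without plate B, at -3.94 and an adjusted p of 0.095, without plate C, at -3.25 and 0.37, and with scaling by library size, at -2.47 and 0.14.

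Between the pair 8 and 2 and the pair 7 and 3 no gene passed the edgeR interaction test, while 195 genes, 1.77%, had an unadjusted p under 0.05 and DESeq2 called 0. This does not show that the pairs are alike, since the median SE of the difference was 0.54 on the log2 scale. The 1.77% is also below the share of 0.05 that accurate p-values would give if no gene differed. The test may have been too strict for these pairs, which was not tested. Compartments 7 and 8 of the same plate correlated with r of 0.979 on plates A and B, above the 0.928 between plates A and B in compartment 8, and with 0.945 on plate C. The fit has a plate term but none for neighbouring compartments of a plate, and its part in this SE was not tested. The difference itself had a median of 0.02 and lay between -1.16 and 0.99 for the central 95% of genes. For the named genes it was 1.49 (SE 0.79) in NRRL3_1338, -0.96 (SE 1.30) in NRRL3_68, 0.34 (SE 1.10) in NRRL3_11179 and 0.34 (SE 1.04) in NRRL3_11180.

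Over sugar beet pulp the called genes had median levels between those on glucose 2 and wheat bran 8, which the choice of genes for being apart in 2 and 8 favours. The genes that rose had a median log2 CPM of 2.25 in glucose 2, 3.06 in sugar beet pulp 5 and 4.39 in wheat bran 8. Those that fell had medians of 4.91, 4.49 and 3.34 in the same order, while all genes tested had 3.40, 3.66 and 3.28. By its mean level in compartment 5, a gene that rose was nearer to wheat bran 8 than to glucose 2 in 300 of 957 cases, 31.3%, and a gene that fell in 301 of 736, 40.9%, against 34.7% of all genes tested. In compartment 6 these shares were 41.7% and 50.5%, against 39.4% of all genes, and in compartment 4 they were 22.4% and 28.9%, against 30.5%. Some of these shares lie near those of all genes and say little about the called genes. The furthest were that of the genes that fell in compartment 6, above all genes, and that of the genes that rose in compartment 4, below. These gaps were not tested. Within the glucose section, genes of compartment 1 were on the wheat bran side more often than those of compartment 3, with 26.8% against 5.33% of the genes that rose, 27% against 4.89% of those that fell and 37.3% against 20.6% of all genes. The order of compartments was not tested.

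A smaller set of genes marked the wheat bran section throughout. In 122 of the 957 genes that rose, 12.7%, all 9 wheat bran libraries were above all 18 libraries of the other substrates, and this was so for 1.15% of all genes tested. In 24 of the 736 that fell, 3.26%, all 9 were below all 18, against 0.264% of all genes. NRRL3_1338, NRRL3_1627 and NRRL3_4330 were in the former set, as were NRRL3_1333 and NRRL3_1340, described below. Since 3 of the 9 and 3 of the 18 libraries selected the genes, the larger share among them tests nothing.

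**Figure D4:**
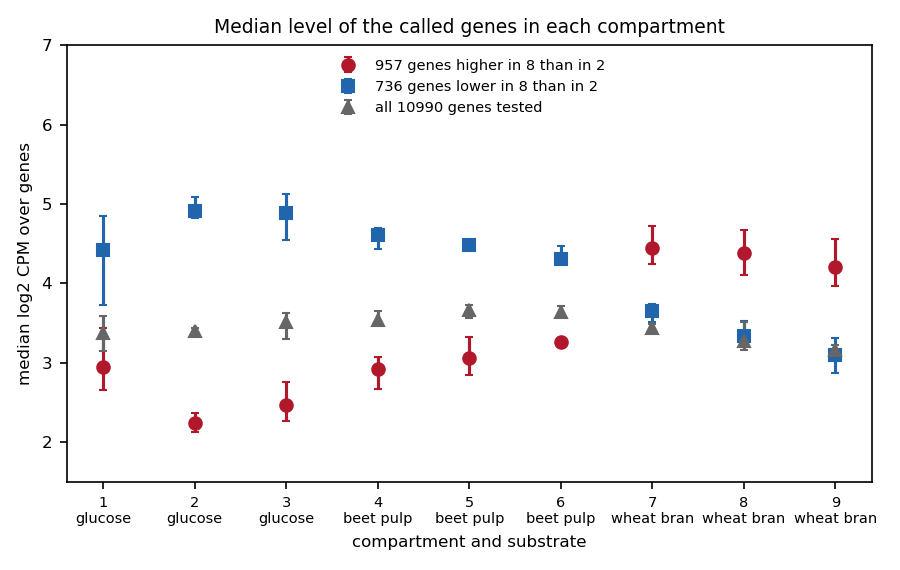
Median log2 CPM (y axis) over the genes that rose (red), those that fell (blue) and all genes tested (grey) in each compartment (x axis). Bars run from the lowest to the highest of the 3 plate medians. The genes that rose are at 2.25 in glucose 2, 3.06 in sugar beet pulp 5 and 4.39 in wheat bran 8, and compartments 2 and 8 chose them.

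Some of the genes called lay side by side in the numbering of IDs, which is an order of IDs and was not checked against positions in a genome. Runs of 3 or more consecutive IDs that all passed in the same direction numbered 40 among the genes that rose, with 159 genes, and 25 among those that fell, with 90 genes. With 5 or more IDs there were 10 and 2 runs.

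The longest run that rose had 8 IDs, from NRRL3_1333 to NRRL3_1340, and includes NRRL3_1338. NRRL3_1333 stood at 7.27, 6.70 and 3.43 CPM on glucose and at 446, 348 and 423 on wheat bran, a log2 change of 6.17 (SE 0.59, edgeR adjusted p = 3.7e-07). NRRL3_1340 stood at 0.383, 0.206 and 0.174 CPM, from 5, 2 and 3 counts, and at 53.3, 217 and 93.5 CPM, a log2 change of 8.70 (SE 1.03, edgeR adjusted p = 5.2e-06), and 9.47 without plate A. The 8 log2 fold changes ran from 1.89 to 9.02 with a median of 5.12, and in all 8 the groups did not overlap. All 8 also passed between 7 and 3, from 1.38 to 7.98, and between 9 and 1, from 3.48 to 8.17. The tested neighbours outside the run, NRRL3_1332 at 0.40 (SE 0.52) and NRRL3_1341 at -0.67 (SE 0.35), did not pass. A run ends by definition where the next ID does not pass in its direction, so this tests nothing.

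The longest run that fell had 11 IDs, from NRRL3_10151 to NRRL3_10161. NRRL3_10151 stood at 8.65, 12.4 and 14 CPM on glucose and at 0.865, 1.08 and 0.711 on wheat bran, a log2 change of -3.71 (SE 0.43, edgeR adjusted p = 3.9e-06). NRRL3_10161 stood at 18.3, 26.8 and 15.7 CPM and at 2.06, 7.24 and 4.4 CPM, a log2 change of -2.22 (SE 0.48, edgeR adjusted p = 0.0028). The 11 genes differed widely in level, with means of 11.7 to 11746 CPM on glucose, and fell by log2 fold changes of -3.99 to -1.44 with no overlap of the groups in any. All 11 passed between 7 and 3, and 7 of 11 passed between 9 and 1, where the log2 fold changes ran from -4.43 to 0.33. The neighbours outside the run, NRRL3_10150 at -0.09 (SE 0.43) and NRRL3_10162 at -0.77 (SE 0.59), did not pass, which the definition of a run again fixes.

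**Figure D5:**
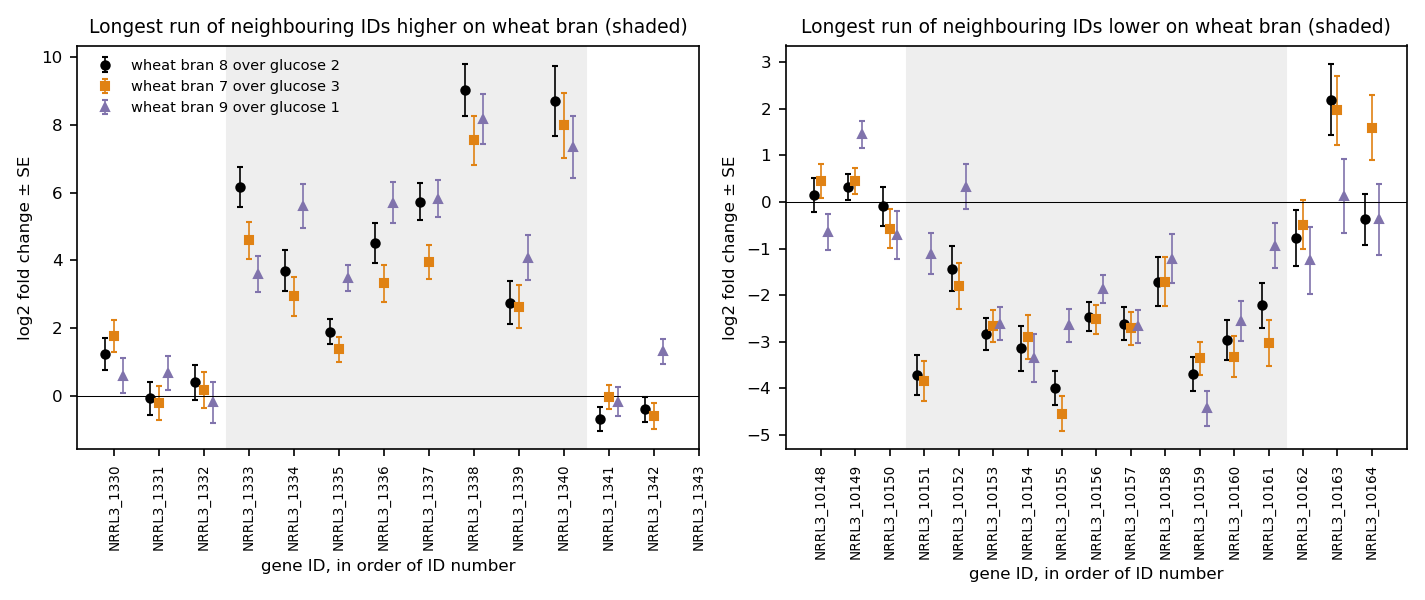
Log2 fold changes with SE (y axis) of the longest runs of consecutive IDs called between wheat bran compartment 8 and glucose compartment 2 (shaded) and of 3 IDs on each side, in order of ID number (x axis). Colours are the 3 pairs of compartments, and NRRL3_1343 was not tested. Inside the runs the changes of 8 over 2 run from 1.89 to 9.02 on the left and from -3.99 to -1.44 on the right.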

How the data were processed

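The deposited table holds raw counts of reads, as the authors left them, for 11846 gene models and 27 libraries. Per the labels' protocols, SMARTer Ultra Low cDNA was fragmented and sequenced on an Ion Proton. HTSeq and DESeq2 are named, without version or role, in the submitters' processing notes. Aligner, genome build, annotation and strand setting were not given in the sources used here.

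From the counts, edgeR 4.0.16 in R 4.3.3 was run with TMM factors, filterByExpr (10990 genes kept) and the quasi-likelihood F-test on 9 compartment groups with the plate as a block, over all 27 libraries (16 residual degrees of freedom). All tests were two-sided, with Benjamini-Hochberg adjustment over all genes tested. SE was taken as the absolute log2 fold change over the root of F. CPM use TMM factors, and log2 CPM a prior count of 2. DESeq2 1.42.0 was an alternative. The fits were tested on simulated data. Alternatives were other scalings, filters on low counts, DESeq2, no block, fewer libraries and each plate left out. The plate block follows the labels, which put the 9 libraries of a plate in 1 colony. Deviations from the compartment means correlated with r of 0.16, 0.17 and -0.05 between compartments 2 and 8 on plates A, B and C.

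Genes were named by rule: adjusted p under 0.05, the same direction on all 3 plates and a mean log2 CPM of 4 or more over the 6 libraries, keeping 2 that rose and 2 that fell, for the main comparison and the difference of pairs. The rule also took the 2 largest gains and losses in CPM, without the minimum level, and the ends of the longest runs. Flanking IDs were named after their values were seen. The comparison, lists and tests were chosen with earlier results of these data known. A check for a library deposited again covered the 6 pairs of replicates of compartments 2 and 8 and found none alike within counting noise, with chi-square per degree of freedom of 75.9 to 313. The replicates are 3 colonies. With the plate as a block, p-values rest on the spread left after mean plate differences, pooled over all compartments of the fit. Beyond the plate term, compartments of a plate were treated as independent. The labels name no molecular identifiers, so a count gives reads and not independent molecules.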

Additional observations from a re-analysis of the deposited data

Results flagged for a closer look

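The change from glucose to wheat bran differed between compartments 8 and 2 and compartments 9 and 1 in 1105 genes, 10.1%, by the edgeR interaction test, and 9 of the 15 named genes were among them. NRRL3_10559, NRRL3_3708, NRRL3_7420 and NRRL3_11180 meet a naming rule that requires this test to be passed, so the count supports nothing. NRRL3_68 differed by 4.35 on the log2 scale (edgeR adjusted p = 0.037), NRRL3_1333 by 2.57 (0.021), NRRL3_10559 by 5.05 and NRRL3_3708 by 5.00. NRRL3_10151 differed by -2.61 (0.012), NRRL3_1522 by -2.08 (0.022), NRRL3_1765 by -3.37 (0.034), NRRL3_7420 by -3.77 and NRRL3_11180 by -3.40. NRRL3_1522 and NRRL3_1765 fell from glucose 2 to wheat bran 8, but from glucose 1 to wheat bran 9 the values were 0.06 (SE 0.39) and 0.36 (SE 0.68) on the log2 scale, and neither passed. All 9 calls were lost without plate C, at log2 differences of the same sign. Without plate A the calls of NRRL3_68 (4.19, adjusted p = 0.12), NRRL3_1522 (-2.22, 0.14) and NRRL3_10151 (-2.39, 0.056) were lost. Without plate B those of NRRL3_1333 (2.32, 0.16), NRRL3_1765 (-3.14, 0.094), NRRL3_7420 (-3.69, 0.062), NRRL3_10151 (-2.74, 0.053) and NRRL3_11180 (-3.94, 0.095) were lost. With the 12 libraries alone NRRL3_1522 (-2.08, 0.15) and NRRL3_10151 (-2.58, 0.0504) were lost. NRRL3_11180 was also lost without TMM factors, and NRRL3_68 and NRRL3_1765 without the plate block.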

How the results depend on the processing

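The number of genes called between wheat bran 8 and glucose 2 stayed within 1.5 times 1693 under each other setting tried and fell to 266 without plate C, the lowest of 266 to 1866 over the plates left out. With the 6 libraries alone it was 2035, with compartments 2, 5 and 8 alone 1950 and without compartment 9 1801. For the difference between this pair and the pair 9 and 1, leaving out a plate gave 0 to 455, library size scaling 2130, DESeq2 1704 and the 12 libraries alone 606. Leaving out a plate gave 1612 to 4584 genes between 9 and 1 (5737 with library size scaling), and 221 to 2337 between 7 and 3. Between the pair 8 and 2 and the pair 7 and 3 the count was 0 under every setting run. Without the replicate block 1522 genes passed between 8 and 2 and 857 in the difference of pairs, and the difference was lost for NRRL3_68 (4.62, adjusted p = 0.070) and NRRL3_1765 (-3.54, 0.051). Runs of 5 or more IDs numbered 10 and 2. Of 270 values of named genes under other settings, 244 kept their direction and side of the threshold, 26 kept the direction and lost the call, and none turned. Counts of 12885056 to 21202650 per library of compartments 2 and 8, and of 8006891 to 11847598 in compartment 9, set what could be called among weakly expressed genes.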
